A study of Mus musculus with 8 samples.

Results

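Chromatin accessibility was examined at 10 genes of epithelial cells: Epcam, Cdh1, Cldn3, Cldn4, Cldn7, Cgn, Esrp1, Esrp2, Rab25 and St14. They are 10 of the 21755 protein-coding genes considered, and all 10 are among the 14571 genes with a promoter peak in at least 1 library. A promoter peak is an ATAC-seq peak with at least 1 bp within 1 kb of a transcription start site (TSS) of the gene in the GENCODE M21 annotation. Every other peak in the gene body, or within 5 kb of a TSS, was assigned to the gene as a peak outside the promoter. Overlapping or adjoining peaks, from whichever library, were joined into regions. The 10 genes hold 73 of the 183173 merged regions, 25 in promoters and 48 outside them. The genes were chosen by their role, with the promoter peaks and score percentiles of these same 8 libraries in view, so their values are a description and carry no test.

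The cells were cultured lines from mouse mammary tumors driven by PyMT, the polyomavirus middle T oncogene, which is expressed from the MMTV promoter in mammary epithelium. The strain is given as FBV/N for every library, and no drug treatment is labelled. Lats1 encodes a kinase of the Hippo pathway and was intact in the WT cells and deleted in the Lats1-CKO cells, by a deletion meant for the epithelial compartment. Each culture was sorted into luminal cells (EpCAM-high, CD49f-high) and basal-like cells (EpCAM-low, CD49f-high), expanded briefly and taken for ATAC-seq, in which a transposase cuts open chromatin. Each of the 4 groups has 2 libraries: those of WT luminal cells are called BM1 and BM5, those of WT basal-like cells BM2 and BM6, those of Lats1-CKO luminal cells BM3 and BM7, and those of Lats1-CKO basal-like cells BM4 and BM8. The genotypes are those of the labels, since a peak list does not measure a deleted exon. EpCAM, the protein of Epcam, was itself a sorting marker, so the population label and Epcam are not independent.

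The libraries held 51497 to 99022 peaks, apart from BM3 with 14753. In BM3, 56.4% of peaks lay within 1 kb of a TSS, against 24.2% to 33.2% in the other libraries. The lists hold no read counts, and the depth of a library is unknown. Where a peak is said to be absent, none was called, and this can reflect a shallow library as well as closed chromatin. The score of a peak was therefore used only as a percentile among the peaks of its own library, with 100 the highest. In cultures of many cells, fewer cells with an open site and a less open site in each cell cannot be told apart. Of the markers of basal cells, Krt5 had a promoter peak in BM7 and in no other library, at a percentile of 1.23, near the lowest. Trp63 had none in any library, whereas Krt14 had one in all 8. Of the luminal markers, Krt8 had a promoter peak in all 8 libraries, and Krt18 had one in all but BM3, BM4 and BM8. The peaks of these markers thus did not separate the basal-like from the luminal libraries in both genotypes, and the populations are named by their sort.

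Epithelial sheets are held together by adherens junctions and, towards the lumen, tight junctions. E-cadherin, the product of Cdh1, joins neighbouring cells at the former, and claudins form the seal of the latter. Cells that undergo an epithelial-mesenchymal transition take these junctions apart and change the splicing of many transcripts. ESRP proteins favour the epithelial splice forms of transcripts such as those of the FGF receptors and p120-catenin. Repressors of the ZEB and SNAIL families bind E-boxes of the sequence CACCTG and are known to act on Cdh1 and other junction genes, while grainyhead-like factors bind elements of the form AACCNGTT in many epithelial genes.

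Promoter sequences were taken from RefSeq (GRCm38.p6) for the 6 genes with an entry, Epcam, Cldn3, Cldn4, Cldn7, Rab25 and Cgn. No entry was matched for Cdh1, Esrp1, Esrp2 or St14. The 3 promoters below run from 200 bases before to 30 after the start, 5′ to 3′ along the gene. They are shown because Cldn4 and Rab25 had their promoter peaks in some libraries and in neither Lats1-CKO basal-like library, whereas Cgn had its peak in every library. Capitals mark CACCTG or its complement CAGGTG. The lines give Cldn4 (chr5:134946905-134947134, minus strand), Rab25 (chr3:88548250-88548479, minus strand) and Cgn (chr3:94786453-94786682, minus strand).
Cldn4: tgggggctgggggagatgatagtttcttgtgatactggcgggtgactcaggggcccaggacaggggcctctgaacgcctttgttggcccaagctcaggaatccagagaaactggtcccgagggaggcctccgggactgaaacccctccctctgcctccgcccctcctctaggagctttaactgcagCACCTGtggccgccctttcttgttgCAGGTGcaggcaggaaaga
Rab25: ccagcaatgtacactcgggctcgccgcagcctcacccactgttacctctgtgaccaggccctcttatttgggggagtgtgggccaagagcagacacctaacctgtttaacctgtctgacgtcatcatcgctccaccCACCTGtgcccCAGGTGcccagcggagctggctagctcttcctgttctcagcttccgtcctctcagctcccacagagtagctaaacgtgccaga
Cgn: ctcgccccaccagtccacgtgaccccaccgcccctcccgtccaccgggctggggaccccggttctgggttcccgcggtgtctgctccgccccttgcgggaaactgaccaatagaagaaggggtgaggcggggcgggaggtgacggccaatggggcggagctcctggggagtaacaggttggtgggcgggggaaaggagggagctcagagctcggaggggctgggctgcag

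The next sequence is the central 300 bases of a region in an intron of Cdh1 (chr8:106619584-106619883, plus strand of GRCm38.p6), 16.4 kb from the start of the gene. It is shown because it had a peak in all 8 libraries, including the 2 without a peak at the Cdh1 promoter. Capitals mark a match to TGANTCA, the element bound by AP-1 factors. The sequence also holds 1 match to CACCTG, as its complement CAGGTG, which is left in small letters here.
Cdh1 intron: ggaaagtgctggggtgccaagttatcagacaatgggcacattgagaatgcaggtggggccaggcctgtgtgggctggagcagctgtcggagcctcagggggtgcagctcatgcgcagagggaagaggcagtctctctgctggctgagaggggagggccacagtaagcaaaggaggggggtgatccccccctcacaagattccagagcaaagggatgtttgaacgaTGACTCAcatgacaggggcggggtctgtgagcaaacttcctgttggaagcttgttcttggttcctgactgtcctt

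The letters of these windows were compared with those of 16522 promoters of the same length, 300 bases from 250 before to 50 after the start. CACCTG was found on either strand in 4 of the 6 promoters, those of Epcam, Cldn3, Cldn4 and Rab25, against 19.3% of all promoters. In Cldn4, the matches begin 14 bases before and 11 bases after the start. In Rab25, they begin 64 and 53 bases before it, on opposite strands. The grainyhead-like element AACCNGTT was in the windows of Rab25 and Cgn, against 1.97% of all promoters. GGAATG, the element of TEAD factors, was in that of Cldn7 (13.2% of all), and TGANTCA was in that of Cldn4 with 2 matches (7.1% of all). The Cgn promoter was the richest of the 6 in CpG, with 23 CpG dinucleotides against 7 to 11 in the others. It had no CACCTG in the window, and neither had Cldn7. The main Cldn7 promoter peak, inside the gene, was nevertheless missing from BM4 and BM8. The windows of Epcam and Cldn7 had no peak in any library, so their matches lie outside the promoter peaks of these genes. A match gives letters and not a bound site, and 6 promoters are few.

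At the promoters, the 10 genes were accessible in nearly all WT and Lats1-CKO luminal libraries, and 8 of the 10 lacked a promoter peak in each of the Lats1-CKO basal-like libraries. The WT luminal libraries had promoter peaks at 10 genes (BM1) and 10 genes (BM5), the WT basal-like libraries at 9 (BM2) and 7 (BM6), the Lats1-CKO luminal libraries at 9 (BM3) and 10 (BM7), and the Lats1-CKO basal-like libraries at 2 (BM4) and 2 (BM8). The Lats1-CKO basal-like libraries lay apart from the other 6. Among all protein-coding genes, the share with a promoter peak was 57.7% in BM1, 50.9% in BM5, 55.9% in BM2, 52.6% in BM6, 34.6% in BM3, 59.3% in BM7, 57.2% in BM4 and 58.3% in BM8. The 10 genes were thus above the background in 6 libraries and below it in the Lats1-CKO basal-like libraries, where the share over all genes was within the range of the other libraries. BM3, the library with few peaks, still had a promoter peak at 9 of the 10. With each list cut to its 10000 peaks of highest score, BM4 and BM8 no longer stood apart: promoter peaks were left at 8 genes in BM1, 4 in BM5, 2 in BM2, 2 in BM6, 6 in BM3, 1 in BM7, 0 in BM4 and 1 in BM8. The shares of all genes were then 26.2%, 20.6%, 19.7%, 25.3%, 28.2%, 23.4%, 21% and 21.3% in the same order.

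**Figure D1:**
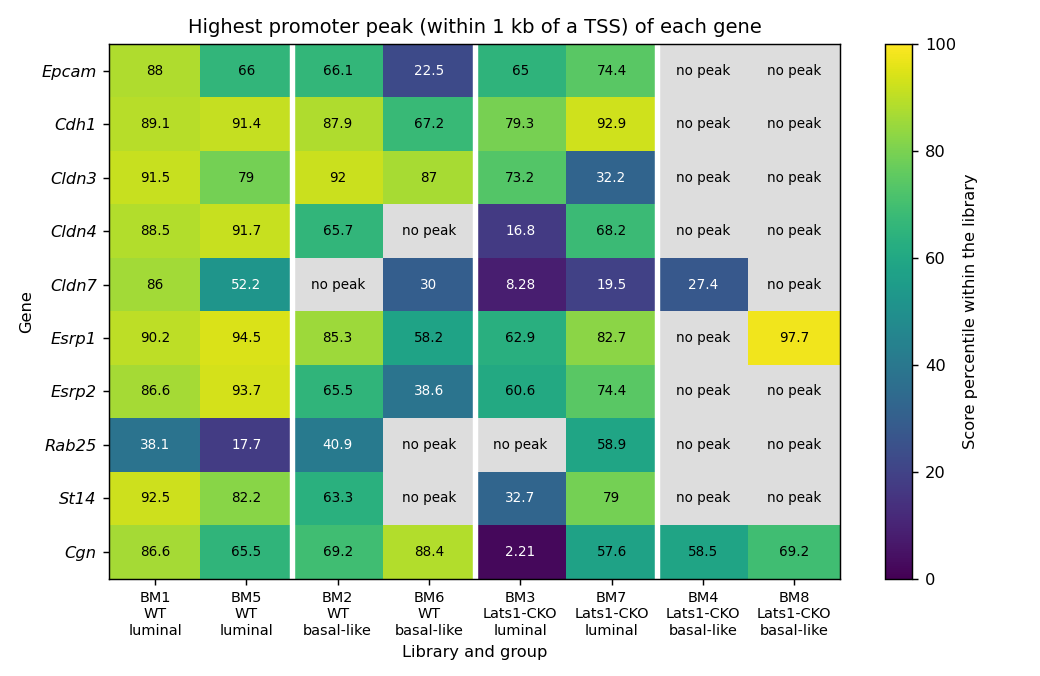
Score percentile of the highest promoter peak (colour, 0 to 100 within a library) of each of the 10 genes (rows) in the 8 libraries (columns, by group); grey means that no peak was called within 1 kb of a TSS. In the columns of BM4 and BM8, the cells with a value are those of Cldn7 (27.4, BM4), Esrp1 (97.7, BM8) and Cgn (58.5 and 69.2).

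The mean number of genes with a promoter peak was 9 ± 1.41 in the WT libraries and 5.75 ± 4.35 in the Lats1-CKO libraries (SD, n = 4). By population it was 9.75 ± 0.5 in the luminal and 5 ± 3.56 in the basal-like libraries (SD, n = 4). The differences were 3.25 by genotype and 4.75 by population, and the pooled SD between libraries of the same group was 0.791. This SD is low because the 2 WT luminal libraries had equal counts, as had BM4 and BM8. It is no test, since the genes were chosen with these peaks in view. Among luminal libraries the counts were 10 and 10 in WT and 9 and 10 in Lats1-CKO. Without BM4 or without BM8, the difference by genotype was 2 and that by population 3.75. Without BM3, they were 4.33 and 5. The median promoter percentile over the 10 genes, with a missing peak set at 0, was 88.2 in BM1, 80.6 in BM5, 65.9 in BM2, 34.3 in BM6, 46.6 in BM3, 71.3 in BM7, and 0 in BM4 and BM8. In this measure the 2 WT basal-like libraries were below the 2 WT luminal libraries. The differences of this median were 37.8 by genotype and 46.6 by population, against a pooled SD of 14.4 within groups.

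Between the Lats1-CKO populations, 6 of the 10 genes (Epcam, Cdh1, Cldn3, Cldn4, Esrp2 and St14) had a promoter peak in both luminal libraries and in neither basal-like library, a pattern that 0.129% of all genes showed. These 6 are among the 28 protein-coding genes with it. Between WT and Lats1-CKO basal-like cells, 4 of the 10 (Epcam, Cdh1, Cldn3 and Esrp2) had a promoter peak in both WT and in neither Lats1-CKO library, against 0.446% of all genes. Between the WT populations, none of the 10 had a promoter peak that BM1 and BM5 shared and that was missing from BM2 and BM6 (0.533% of all genes). None had one shared by BM1 and BM5 and missing from BM3 and BM7 either (0.639%). The reverse patterns held none of the 10. Their shares of all genes were 0.294% for both WT basal-like and neither WT luminal library, 1.18% for both Lats1-CKO basal-like and neither Lats1-CKO luminal library, 0.0322% for both Lats1-CKO luminal and neither WT luminal library, and 1.67% for both Lats1-CKO basal-like and neither WT basal-like library. These comparisons share libraries with each other. Of the 9974 genes with a promoter peak in all 4 WT libraries, 65 (0.652%) had none in BM4 and none in BM8; 6 of the 10 genes belong to the 9974, and 4 of the 6 to the 65. Leaving BM3 aside, all 10 genes had a promoter peak in BM1, BM5 and BM7, and 7 of the 10 had none in BM4 and BM8, against 133 (1.27%) of the 10451 genes with a peak in those 3 luminal libraries.

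Taking percentiles, Cldn3 was the one gene of the 10 whose 4 WT libraries were all above its 4 Lats1-CKO libraries, which 0.721% of the 14571 genes with a promoter peak showed. None of the 10 had every Lats1-CKO library above every WT library (0.398%), every luminal library above every basal-like library (0.206%) or every basal-like library above every luminal library (0.727%). By population, at least 1 WT basal-like library of each of the 10 genes reached into the range of the luminal libraries. WT basal-like cells lacked a promoter peak at Cldn4, Rab25 and St14 in BM6 and at Cldn7 in BM2.

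**Figure D2:**
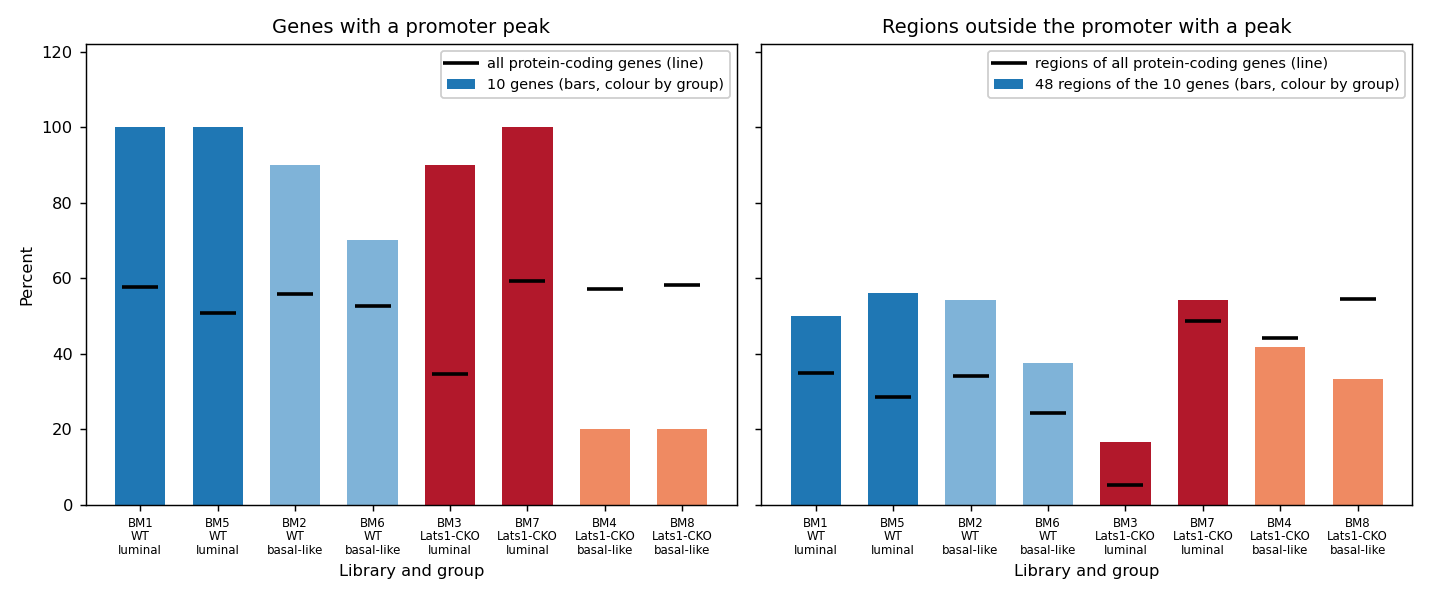
Percent (vertical axis) of the 10 genes with a promoter peak (left) and of their 48 regions outside the promoter with a peak (right) in each library (bars, coloured by group), with the same percent over all protein-coding genes or their regions as a black line. On the left the bars of BM4 and BM8 are at 2 of 10 genes, below the lines at 57.2% and 58.3%. On the right they are at 41.7% and 33.3%, with the lines at 44.1% and 54.5%.

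Among the adhesion genes, Epcam encodes the epithelial cell adhesion molecule. Epcam (ENSMUSG00000045394, chromosome 17 of GRCm38, 87635979 to 87651129, plus strand) had its promoter peak 0.648 kb inside the gene, over an alternative TSS (region 87636452 to 87636803). Peak percentiles were 88 in BM1, 66 in BM5, 66.1 in BM2, 22.5 in BM6, 65 in BM3 and 74.4 in BM7, and no peak was called in BM4 and BM8. In the WT cells sorted as EpCAM-low the promoter thus still had a peak in both libraries, low in BM6. The Lats1-CKO cells sorted as EpCAM-low had none. The sort does not give the EpCAM level after the expansion that preceded ATAC-seq. In the paper, sorted WT basal-like cells became partly luminal over passages, whereas Lats1-CKO basal-like cells kept their phenotype. The part of such a shift in these peaks was not tested. The 300 bases around the RefSeq start had no peak in any library.

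E-cadherin is the adhesion receptor of the adherens junction. Cdh1 (ENSMUSG00000000303, chromosome 8, 106603351 to 106670246, plus strand) had a peak over its start (region 106603182 to 106603462) at percentiles of 89.1 in BM1, 91.4 in BM5, 87.9 in BM2, 67.2 in BM6, 79.3 in BM3 and 92.9 in BM7, and no peak in BM4 and BM8. It was high in the 6 libraries with a peak and lowest in BM6. The introns held a different pattern. The region 16.4 kb into the gene, whose sequence is printed above, had percentiles of 68.4 in BM1, 90.7 in BM5, 88.1 in BM2, 92.4 in BM6, 62.9 in BM3, 91.1 in BM7, 91.4 in BM4 and 84.6 in BM8. At this intronic site the Lats1-CKO basal-like libraries lay within the range of the others. Another intronic region, 5.14 kb into the gene, also had a peak in all 8 libraries, with percentiles from 12.9 to 82.6. One at 52.9 kb had one in all but BM3. Of the 16 regions of Cdh1 outside the promoter, 6 carried a peak in BM4 and 5 in BM8, against 9 in BM7 and 3 in BM3.

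**Figure D3:**
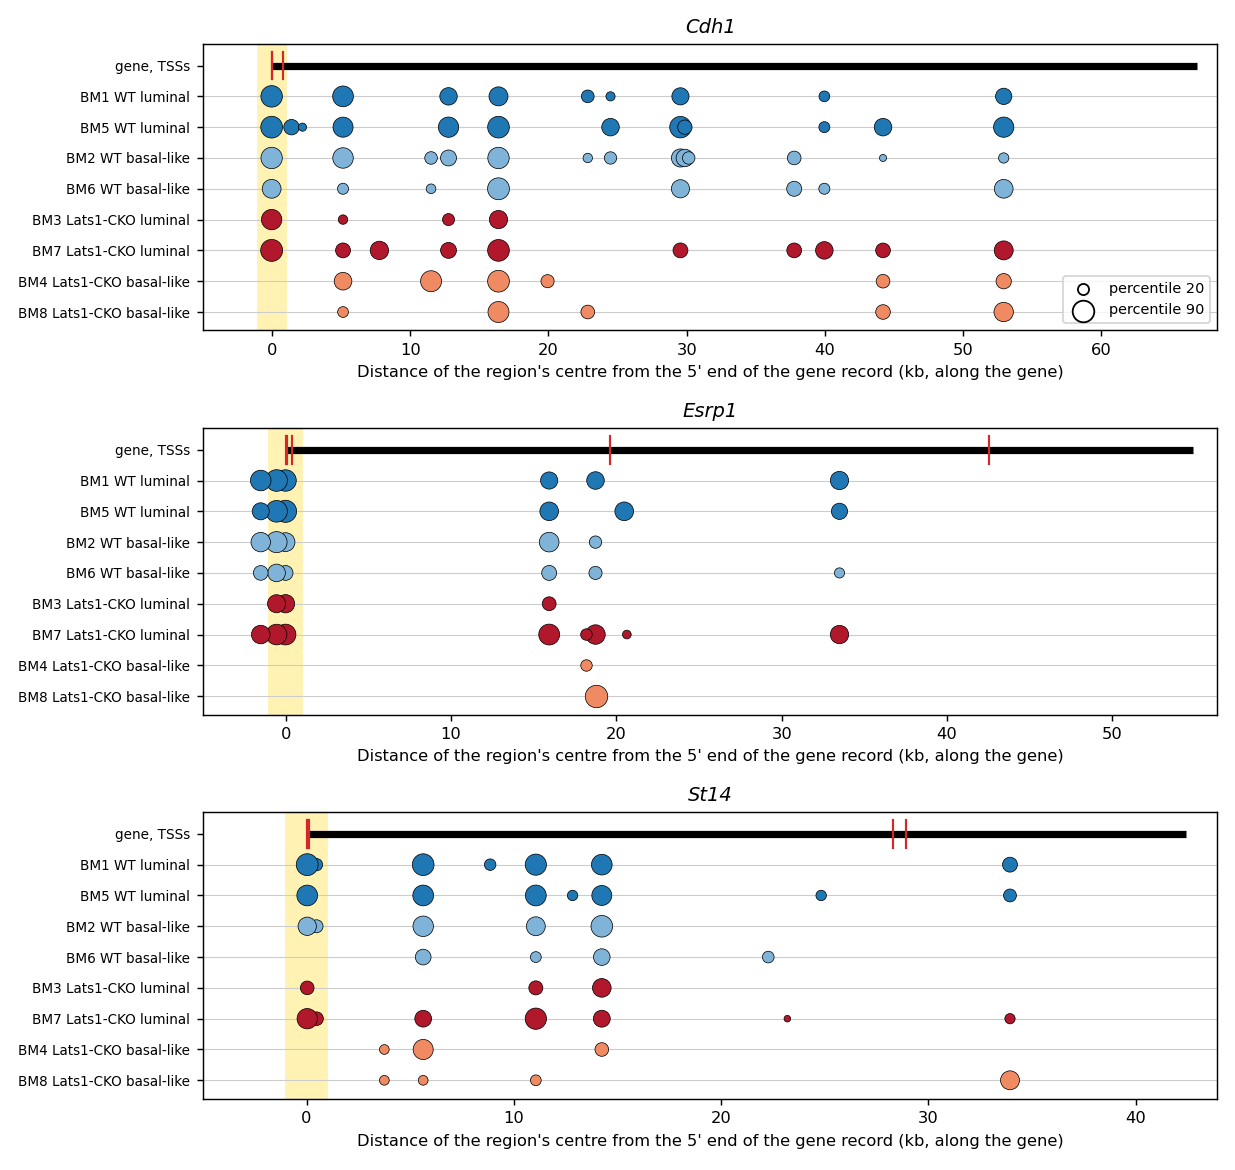
Regions of Cdh1, Esrp1 and St14 by distance of their centre from the 5′ end of the gene (kb along the gene, horizontal axis) in each library (rows); the area of a circle grows with the score percentile, the black bar is the gene, red marks are TSSs and the yellow band is 1 kb on either side of the 5′ end. In the rows of BM4 and BM8 the yellow band is empty at all 3 genes, while circles remain along their bodies. At Esrp1 these lie 18.2 kb (21.6 in BM4) and 18.7 kb (97.7 in BM8) into the gene.

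Claudins are membrane proteins of the tight junction seal. Cldn3 (ENSMUSG00000070473, chromosome 5, 134986214 to 134987472, plus strand) had a peak over its start (region 134985703 to 134986298) at percentiles of 91.5 in BM1, 79 in BM5, 92 in BM2, 87 in BM6, 73.2 in BM3 and 32.2 in BM7, and none in BM4 and BM8. The 4 WT libraries lay between 79 and 92, above both Lats1-CKO luminal libraries. A region downstream of the gene, 3.64 kb from its start, had a peak in all 8 libraries, at 76.7 in BM4 and 59 in BM8 against 15 to 71.6 in the other 6, so it was not lower in the libraries without a promoter peak.

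Cldn4 (ENSMUSG00000047501, chromosome 5, 134945119 to 134946934, minus strand) had a peak over its start (region 134946922 to 134947261) at percentiles of 88.5 in BM1, 91.7 in BM5, 65.7 in BM2, 16.8 in BM3 and 68.2 in BM7, and none in BM6, BM4 and BM8. It was highest in WT luminal cells, and of the basal-like libraries BM2 had the peak. A region 4.31 kb upstream had a peak in BM1, BM5 and BM2, at 64.7, 37.8 and 46.7, and in no Lats1-CKO library.

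Cldn7 (ENSMUSG00000018569, chromosome 11, 69964779 to 69967885, plus strand) had a peak 0.617 kb inside the gene over an internal TSS (region 69965255 to 69965537), at percentiles of 86 in BM1, 52.2 in BM5, 30 in BM6, 8.28 in BM3 and 19.5 in BM7. BM2 had no promoter peak. The promoter peak counted for BM4, at 27.4, was another one, 0.55 kb upstream of the start, and BM8 had none. The peak inside Cldn7 was thus absent from both Lats1-CKO basal-like libraries and from the WT basal-like library BM2, and both WT luminal libraries were above both Lats1-CKO luminal libraries there.

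Cingulin, encoded by Cgn, is a cytoplasmic protein of the tight junction that binds actomyosin. Cgn (ENSMUSG00000068876, chromosome 3, 94760069 to 94786492, minus strand) differed from the other 9 genes in having a peak over its start (region 94786380 to 94786705) in every library. Peak percentiles were 86.6 in BM1, 65.5 in BM5, 69.2 in BM2, 88.4 in BM6, 2.21 in BM3, 57.6 in BM7, 58.5 in BM4 and 69.2 in BM8. Of the Lats1-CKO basal-like libraries, BM8 lay within the range of the WT libraries and BM4 below it, and the lowest value by far was that of BM3. This was 1 of the 25 promoter regions, and the one with a peak in all 8 libraries. In the introns of Cgn, regions at 4.85 kb and 5.21 kb had peaks in BM1, BM5 and BM2, and of the Lats1-CKO libraries BM4 had the first, at 65.9.

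ESRP1 and ESRP2 are RNA-binding proteins that set the epithelial pattern of alternative splicing. Esrp1 (ENSMUSG00000040728, chromosome 4, 11331933 to 11386783, minus strand) had a peak over its start (region 11386550 to 11387024) at percentiles of 88.8 in BM1, 94.5 in BM5, 67 in BM2, 39.8 in BM6, 62.9 in BM3 and 82.7 in BM7. A neighbouring region 0.547 kb upstream had 90.2 in BM1, 90.2 in BM5, 85.3 in BM2, 58.2 in BM6, 61.3 in BM3 and 81.4 in BM7. Both regions lacked a peak in BM4 and BM8, and another region, 1.5 kb upstream and so outside the promoter, had a peak in all 4 WT libraries and BM7. The promoter peak counted for Esrp1 in BM8, at percentile 97.7, lay 18.7 kb into the gene near an internal TSS (region 11367939 to 11368148). The same site had 57.6 in BM1, 25.9 in BM2, 30 in BM6 and 72.1 in BM7, and no peak in BM4, BM5 or BM3. BM8 thus had the highest value there, and it was not repeated in BM4, the other library of its group.

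Esrp2 (ENSMUSG00000084128, chromosome 8, 106130319 to 106136974, minus strand) has 8 annotated TSSs and 4 promoter regions, all of which also lie within 1 kb of a TSS of 1810019D21Rik, so the peaks cannot be assigned to one gene. The region at the start (106136724 to 106137092) had percentiles of 86.6 in BM1, 69.2 in BM5, 65.5 in BM2, 38.6 in BM6 and 74.4 in BM7. The region 1.8 kb inside the gene had 74 in BM1, 93.7 in BM5, 42.8 in BM2, 5.07 in BM6, 60.6 in BM3 and 73.3 in BM7. Neither had a peak in BM4 and BM8, and both of these libraries had one 4 kb upstream, at 62.3 and 58.3. That upstream site also had a peak in BM2 at 12.8 and in BM7 at 38.1.

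RAB25 is a small GTPase of the recycling of membrane proteins in polarized epithelia. Rab25 (ENSMUSG00000008601, chromosome 3, 88542029 to 88548300, minus strand) had a promoter peak in 4 libraries, the fewest of the 10 genes, and it lay over the start (region 88548234 to 88548419). Its percentile was 38.1 and 17.7 in WT luminal cells (BM1, BM5), 40.9 in BM2 and 58.9 in BM7, with none in BM6, BM3, BM4 and BM8. No Rab25 value was above 58.9, so this promoter was among the weaker ones of the 10. A region 4.61 kb upstream had a peak in all 8 libraries, from 42 in BM3 to 98.7 in BM5, but it lies within 1 kb of TSSs of Lamtor2 and Ubqln4.

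St14 encodes matriptase, a membrane-bound serine protease of epithelial cells. St14 (ENSMUSG00000031995, chromosome 9, 31089402 to 31131853, minus strand) had a peak over its start (region 31131683 to 31131960) at percentiles of 92.5 in BM1, 82.2 in BM5, 63.3 in BM2, 32.7 in BM3 and 79 in BM7, and none in BM6, BM4 and BM8. Both WT luminal libraries were above every other library. In the introns, regions at 5.63 kb, 11.1 kb and 14.2 kb each had a peak in 7 libraries. At the first of these the Lats1-CKO basal-like libraries had 77 in BM4 and 14.2 in BM8. At 11.1 kb BM4 had no peak and BM8 had 18.5, and at 14.2 kb BM4 had 32.7 and BM8 had no peak. All 3 regions had a peak in BM6. BM6, BM4 and BM8 thus had peaks in the body of St14 without one at its start. A region at 3.75 kb had low peaks in BM4 and BM8, at 14 and 14.2, and none in the 6 other libraries.

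Outside the promoters, the number of peaks at the 10 genes did not set BM4 and BM8 apart from the other libraries. The number of peaks there was 24 in BM1, 28 in BM5, 26 in BM2, 18 in BM6, 8 in BM3, 26 in BM7, 20 in BM4 and 16 in BM8. The WT libraries had 24 ± 4.32 and the Lats1-CKO libraries 17.5 ± 7.55 such peaks (SD, n = 4), a difference of 6.5 that was within the SD of 7.25 between libraries of the same group. By population, the difference was 1.5, and it turned to -0.667 without BM5. Of the 48 regions, 50% had a peak in BM1, 56.2% in BM5, 54.2% in BM2, 37.5% in BM6, 16.7% in BM3, 54.2% in BM7, 41.7% in BM4 and 33.3% in BM8. Over all 88265 pairs of a protein-coding gene and a region outside its promoter, the shares were 34.8%, 28.7%, 34.2%, 24.4%, 5.15%, 48.6%, 44.1% and 54.5% in the same order of libraries. The 10 genes were above the background in the 4 WT libraries and the Lats1-CKO luminal ones, near it in BM4 and below it in BM8. Relative to the background, BM4 and BM8 were thus again the lowest, by a smaller margin than at the promoters.

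Of the 25 promoter regions, 8 had a peak in all 4 WT libraries, and 7 of these 8 had none in BM4 or BM8. Of the 48 regions outside, 11 had a peak in all 4 WT libraries, and 3 of the 11 had none in BM4 or BM8. A peak in both Lats1-CKO basal-like libraries was found at 1 of the 25 promoter regions and at 11 of the 48 others. Most of the regions outside were intronic (32 of 48), and 17 had a peak in a single library, as had 8 of the promoter regions. Median widths were 210 bp for promoter regions and 195 bp for the others. The motifs listed above were in the central 300 bases of the 48 regions at shares of 29.2% for CACCTG, 4.17% for AACCNGTT, 20.8% for GGAATG and 33.3% for TGANTCA. Over 83421 regions outside promoters, the shares were 19.7%, 2.6%, 21.9% and 30.8%, so CACCTG, in 14 of the 48, had the widest gap in percentage points, while AACCNGTT, in 2 of the 48, was further above its background as a ratio.

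The distance of 1 kb decides how the genes are counted. The promoter region nearest to that limit was 983 bp from a TSS of Esrp1 (a peak in BM7 at 10.1). The nearest ones beyond it were 1145 bp from a TSS of Rab25, with a peak in 5 libraries, and 1279 bp from one of Esrp2, with a peak in BM4. With 5 kb in place of 1 kb, a peak was assigned to 10 of the 10 genes in BM1, BM5, BM3, BM7 and BM4, to 9 in BM2 and BM8 and to 8 in BM6. The shares of all genes were then 66.3% in BM1, 61.8% in BM5, 64.8% in BM2, 61% in BM6, 39.2% in BM3, 69.5% in BM7, 68% in BM4 and 68.9% in BM8. The difference by genotype was then -0.5 genes, but with nearly every gene counted in every library this number leaves little room for a difference. The median percentile over the 10 genes still differed by 16.2 by genotype and 20.4 by population. By library it was 88.2 in BM1, 86.8 in BM5, 68.9 in BM2, 48.4 in BM6, 51.3 in BM3, 74.4 in BM7, 43.2 in BM4 and 58.7 in BM8. BM4 was still the lowest, but BM8 was above BM6 and BM3, so the 2 Lats1-CKO basal-like libraries no longer stood apart.

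Other genes of the same processes were taken as lists. Of 42 junction and polarity genes, the number with a promoter peak was 41 in BM1, 34 in BM5, 34 in BM2, 32 in BM6, 19 in BM3, 40 in BM7, 22 in BM4 and 30 in BM8. The Lats1-CKO basal-like libraries were below the 6 others apart from BM3. Unlike the 10 genes, however, the list was near the share of all genes in BM4 (52.4% beside 57.2%) and above it in BM8 (71.4% beside 58.3%). Between the WT and Lats1-CKO libraries, the percentiles of none of the 42 were completely apart. Of all genes with a promoter peak, 0.721% had every WT library above and 0.398% every Lats1-CKO library above. With every luminal above every basal-like library there was 1 gene (2.44% of the 41 with a promoter peak, against 0.206% of all such genes). It was Crb3, a component of the apical polarity complex. Its percentile was 50.2 and 36.7 in WT luminal (BM1, BM5) and 57.3 and 59.7 in Lats1-CKO luminal libraries (BM3, BM7), and no basal-like library of either genotype had a promoter peak. The following genes of the list were singled out after their values were seen. Ocln and Marveld2, which encode tight junction proteins, and Spint1, which encodes an inhibitor of matriptase, had a promoter peak in BM2 and BM6 but not in BM4 or BM8. Of the 42 genes, 4 had this pattern (9.52%, against 0.446% of all genes). Prss8, a membrane-anchored protease, shared with Crb3 a promoter peak in BM1 and BM5 that BM2 and BM6 lacked. That pattern held for 2 of the 42 (4.76%, against 0.533% of all genes).

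**Figure D4:**
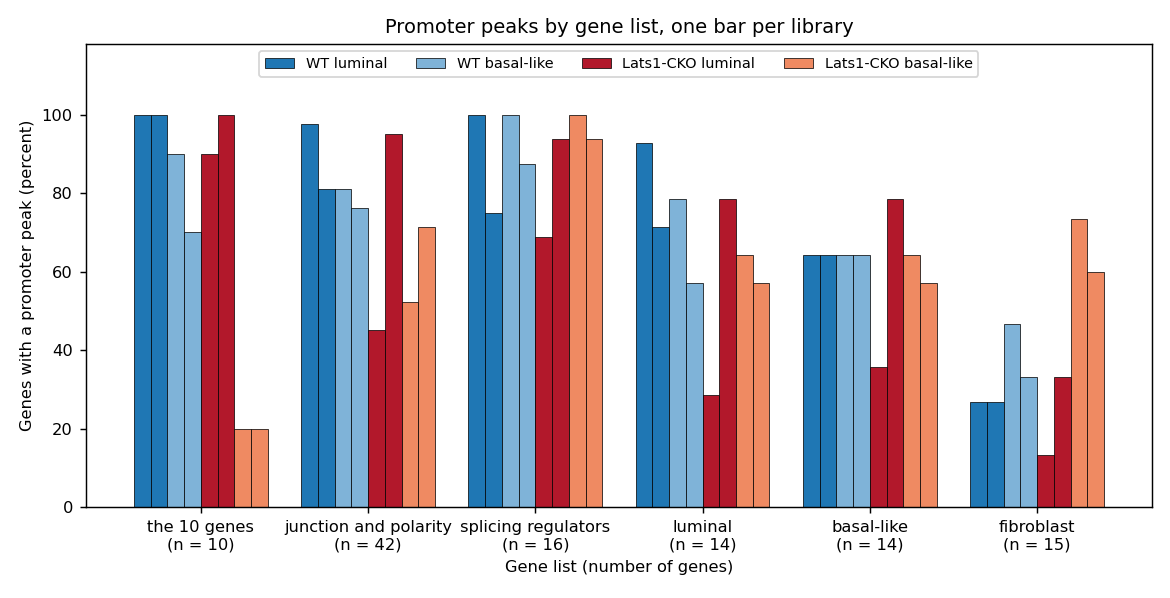
Percent of the genes of each list with a promoter peak (vertical axis), 1 bar per library, coloured by group and in the order BM1, BM5, BM2, BM6, BM3, BM7, BM4, BM8 within a list. The orange bars of BM4 and BM8 are the lowest for the 10 genes (2 and 2 of 10) and the highest for the fibroblast markers (11 and 9 of 15).

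The splicing regulators behaved otherwise than Esrp1 and Esrp2. Of 16 such genes, the number with a promoter peak was 16 in BM1, 12 in BM5, 16 in BM2, 14 in BM6, 11 in BM3, 15 in BM7, 16 in BM4 and 15 in BM8, so the Lats1-CKO basal-like libraries were among the highest. The list was above the share of all genes in every library, with 100% beside 57.2% in BM4 and 93.8% beside 58.3% in BM8. With 11 to 16 of the 16 counted in each library, it leaves little room for a difference. With every luminal above every basal-like library there was 1 gene of the 16 (6.25%, against 0.206% of all genes with a promoter peak). It was Hnrnpm, which encodes an hnRNP that acts on some of the same exons as the ESRP proteins. Its percentile was 94.8 and 88.4 in WT luminal (BM1, BM5) and 96.9 and 88.2 in Lats1-CKO luminal libraries (BM3, BM7), against 75 in BM2, 80.1 in BM6, 85.7 in BM4 and 82.2 in BM8, a gap of 2.48 between the groups.

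Markers of other cell types were counted in the same way. Of 15 fibroblast markers, 11 had a promoter peak in BM4 and 9 in BM8, against 4 in BM1, 4 in BM5, 7 in BM2, 5 in BM6, 2 in BM3 and 5 in BM7. By count, this was the one of the 3 lists of other cell types with both BM4 and BM8 above every other library. They had 73.3% and 60% of its genes beside 57.2% and 58.3% of all genes. The percentiles of the list summed to 469 to 593 in the Lats1-CKO basal-like libraries, against 211 to 255 in WT luminal, 307 to 327 in WT basal-like and 111 to 278 in Lats1-CKO luminal libraries. Col3a1, Col6a3 and Lum had no promoter peak in any library, whereas Pdgfra had one in all but BM3. Of 10 immune markers, 5 had a promoter peak in BM4 and 7 in BM8, against 0 to 5 in the other libraries, and Cd3e, Cd79a and Itgam had none in any. BM4 and BM8 thus had 50% and 70% of this list, beside 57.2% and 58.3% of all genes. The percentiles of the immune markers summed to 289 to 371 in the Lats1-CKO basal-like libraries, 136 to 163 in WT luminal, 84.1 to 137 in WT basal-like and 0 to 203 in Lats1-CKO luminal libraries. By this sum, BM4 and BM8 were above every other library for the immune markers as well. Of 8 endothelial markers, 4 had a promoter peak in BM4 and 2 in BM8, against 0 to 3 in the others, and Cdh5, Tie1 and Emcn had none in any. These shares, 50% in BM4 and 25% in BM8, were below those of all genes. The part of other cell types in the missing promoter peaks was not tested. The luminal markers went with the 10 genes less closely. Of 14, the number with a promoter peak was 9 in BM4 and 8 in BM8, 8 and 11 in the WT basal-like libraries, 10 and 13 in WT luminal, and 4 and 11 in Lats1-CKO luminal. The shares of 64.3% in BM4 and 57.1% in BM8 were near those of all genes. The basal-like markers had 9 of 14 in each of the 4 WT libraries, 9 and 8 in BM4 and BM8, and 5 and 11 in BM3 and BM7, so a library sorted as luminal had the most. In BM4 and BM8 the shares were again 64.3% and 57.1%, near those of all genes.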

How the data were processed

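ATAC-seq was carried out by the authors on sorted and briefly expanded cells, with 2 libraries in each of 4 groups. Per the labels, the processing used cutadapt, Bowtie 1.0.0, Picard 2.3.0 and MACS2 2.1.1.20160309 on mm10. For MACS2, the methods of the study name a different version. The study's methods add that mitochondrial and duplicate reads, long fragments and blacklisted regions were removed, and that 1 Lats1-CKO luminal replicate, not named in the text used here, was set aside for quality when replicates were merged; all 8 libraries were kept here. The authors deposited 1 peak list per library, called separately, each peak with a position and a score, taken from its values to be that of MACS2. This score depends on depth and is not normalized between libraries. Weak sites are missed in shallow libraries, so their counts of peaks are lower limits. The lists hold no counts of reads, so the differential test of the study could not be applied and no interval can be given.

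Peaks were assigned to protein-coding genes of GENCODE M21 (chromosomes 1 to 19 and X), and the highest-scoring promoter peak gave a gene's percentile; ties took their mean rank. Group means are over 4 libraries. The study calls the libraries biological replicates; the labels give no replicate numbers. Differences were set against the pooled SD within the 4 groups, and no test was made, because the genes, lists and motifs were chosen with earlier results of these data known. Named by rule are the 10 genes, list genes whose percentiles separated the groups completely, and genes that share a peak. Markers of cell types, and 4 junction genes (Ocln, Marveld2, Spint1 and Prss8), were named after their values were seen; the values of 1 list gene are not reported here. Alternative windows, TSSs, peak sets and assignments and each library left out were computed. Presence and percentile calls were checked on simulated peaks. The work used python 3.11.15, numpy 2.4.6, pandas 2.3.3, bedtools 2.31.1, pysam 0.24.0 and matplotlib 3.10.9.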

Additional observations from a re-analysis of the deposited data

Results flagged for a closer look

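Within each genotype and each population (4 libraries), Dixon's criterion was applied in 56 cases, and 7 values stood apart, in BM2, BM3, BM6 and BM7; chance alone gives about 1 in 20, and several of the 7 arise because the other 3 libraries had equal values. BM3 had 14753 peaks, the fewest of the Lats1-CKO libraries (ratio 0.849), and promoter peaks at 9 of the 10 genes where the other luminal libraries had all 10. The Cdh1 promoter percentile of 67.2 in BM6 was apart from the other WT libraries (ratio 0.854). In BM2 the Cldn4 percentile of 65.7, the Rab25 percentile of 40.9 and the St14 percentile of 63.3 stood apart because the other basal-like libraries had no promoter peak at these genes. The Rab25 percentile of 58.9 in BM7 stood apart in the same way among the Lats1-CKO libraries. BM2 and BM6, the 2 WT basal-like libraries, thus differed at Cldn4, Rab25 and St14.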

How the results depend on the processing

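No paired analysis was possible because the labels give no replicate numbers and tie no luminal to a basal-like library. Of 210 values, 167 kept their direction within the spread between replicates (counts within 1.5 times), 41 moved and 2 reversed; the cause was not tested. With a window of 5 kb, the difference in genes by genotype was -0.5 and by population 1, those in median percentile 16.2 and 20.4, BM4 had 10 genes and a median of 43.2, BM8 9 and 58.7, and BM5 a median of 86.8. With 500 bp, BM4 and BM8 had 1 gene each, and with the 5′ end of the gene alone BM8 had 1. That end and the nearest TSS each gave a median of 74.1 in BM5 and 24.7 in BM3; percentiles among promoter peaks gave 77 in BM1 and 68.3 in BM5. With the 10000 highest-scoring peaks, which are a different share of each library, the differences in genes were 2 by genotype and 3.5 by population, the median difference by genotype was 10.4, and genes with a promoter peak numbered 4 in BM5, 2 in BM2, 2 in BM6, 1 in BM7, 0 in BM4 and 1 in BM8, with medians of 0 in BM5, BM2, BM6 and BM7. With peaks above a library's median score, BM6 had 4 genes (median 0), BM3 5 and BM4 1. Leaving out each library gave differences in genes from 2 to 4.67 by genotype and from 3.75 to 6.08 by population, and in peaks outside promoters by population from -0.667 (without BM5) to 6 (without BM3). Depth per library is unknown and limits every statement that a peak is absent, above all in BM3.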
